A study of Rattus norvegicus with 3 samples.

Results

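The transporters described here are the membrane proteins that carry amino acids, and some related small molecules, across the cell surface and the membranes of organelles, and they were taken as the genes of 7 solute carrier families. A gene was included when its name on the array began with Slc1a, Slc3a, Slc6a, Slc7a, Slc36a, Slc38a or Slc43a, with any ending "_predicted" or "_mapped" removed. This gave 50 genes on 62 probes and 80 spots, of 35727 gene names on 41012 probes and 43379 spots. The rule reads gene names alone.

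Amino acid transporters work in layers. Sodium-coupled carriers of the Slc1, Slc6 and Slc38 families load a cell against a gradient, and exchangers of the Slc7 family, which sit in the membrane with an Slc3 heavy chain, then trade one amino acid for another. Some Slc43 members, and Slc36 members, move neutral amino acids by facilitated diffusion or with protons. Salivary acinar cells make large amounts of secreted protein and draw the amino acids for it from the blood.

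Gene expression was measured in the sublingual, submandibular and parotid glands of male Wistar rats, an outbred strain, at 10 weeks of age and without treatment. From each gland 500 ng of total RNA was labelled with the dye Cy3 and hybridised to 1 Agilent rat array, so there were 3 arrays and no replicates. The series' description mentions 3 rats, and the sources used here do not tie an array to an animal or to a pool of animals. Every value below therefore describes 1 array, no test was possible, and precision is limited by how few arrays there were.

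The level of a gene is its processed spot signal divided by the array's 75th percentile, called the scaled signal, and differences are on the log2 scale of it. A difference was counted when it reached 2-fold. A probe counted as detected when the scanner software called at least 50% of its spots well above background. Where 1 side was not, the brighter level was set against the lowest detected level on the dim array, or against the dim probe itself where that was higher, and the fold is written "at least". Each error given is the scanner software's own spot error, divided by the square root of the probe's number of spots and carried to the difference. It leaves out variation between animals. Probes with at least 3 spots well above background on an array had a median SD over those spots of 0.09, 0.08 and 0.09 on the log2 scale on the sublingual, submandibular and parotid arrays. Below a scaled signal of 0.5, where many transporters lay, that SD was 0.17, 0.15 and 0.19. Spots not well above background were left out of it, which can make dim probes look less spread than they are.

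The glands' marker genes were checked first. The 5 mucous acinar markers summed to a scaled signal of 1468 on the sublingual array, 1482 on the array labelled submandibular and 0.801 on the parotid array, and the 6 serous acinar markers to 98.9, 173 and 7113. Of 7 granular duct markers with a probe, which mark the submandibular gland of the male rat, none was at least 2-fold above both other arrays on the array labelled submandibular, and they summed to 420, 542 and 1352, with Smr3a alone at 876 on the parotid array. That array is therefore called submandibular-labelled. Whether its RNA came from another gland or from a mixture was not tested, and its values below, with their closeness to sublingual, hold for the array as labelled. Other cell markers differed from parotid as well: all 8 immune markers compared, of 12 with a probe, were lower on both other arrays (the list summed to 31.5 in sublingual, 35.0 in submandibular-labelled and 87.9 in parotid), as were all 7 fibroblast markers (79.8, 68.7 and 200.5), while all 5 myoepithelial markers were higher (155, 178 and 52.4). By at least 2-fold, 6 immune and 4 fibroblast markers were lower in each comparison (all genes: 12.9% in sublingual, 13.9% in submandibular-labelled). Of the myoepithelial markers, 4 were higher by 2-fold in sublingual and 5 in submandibular-labelled (11.2% and 9.72% of all genes). Cd8a, Itgam and Postn were detected only in parotid and could only come out lower. The part of these cell types in the transporter differences was not tested. All counts below are open to differences in cell make-up: in RNA from whole gland, fewer cells of a type and less RNA per cell cannot be told apart.

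Of the 50 transporter genes, 26 were detected on at least 1 array and 20 on all 3 arrays. The other 24 were detected on none, and no member spot was saturated. The sublingual and submandibular-labelled arrays were near-equal, and not for transporters alone. Of 24 transporter genes compared, 0 were at least 2-fold higher in sublingual (1.77% of all 19974 genes compared were) and 0 were at least 2-fold lower (0.586% of all genes). With such low shares over all genes, these counts do not set the transporters apart. The differences lay against the parotid array. Of 26 genes compared, 3 were at least 2-fold higher in sublingual than in parotid (11.5% of members, against 11.2% of all 20933 genes) and 6 were at least 2-fold lower (23.1%, against 12.9% of all genes). In submandibular-labelled over parotid, 5 of 26 were at least 2-fold higher (19.2%, against 9.72% of all 20679 genes) and 5 were at least 2-fold lower (19.2%, against 13.9% of all genes). Bounds made up 3 of the 6 lower in sublingual, and 2 of the 5 lower and 1 of the 5 higher in submandibular-labelled. A gene detected on 1 side only, member or not, could be compared in 1 direction only. Among the 20 members detected on all arrays, 3 were higher and 3 lower in sublingual, and 4 higher and 2 lower in submandibular-labelled. These counts do not set the transporters apart.

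The median log2 difference of the members was -0.10 for sublingual over submandibular-labelled, 0.06 for sublingual over parotid and -0.02 for submandibular-labelled over parotid, against 0.03, 0.02 and -0.01 over all genes. At 4-fold, 1 member was higher in sublingual than in parotid (2.65% of all genes) and 3 were lower (2.76% of all genes). For submandibular-labelled over parotid these counts were 2 higher (2.55% of all genes) and 2 lower (3.19% of all genes). The 11 members at least 2-fold apart in any pair comprised 3 that were higher than parotid on both other arrays (Slc1a1, Slc1a5 and Slc7a5), 5 that were lower than parotid on both (Slc1a2, Slc1a3, Slc6a14, Slc7a9 and Slc43a1), and Slc38a1, Slc38a4 and Slc38a5, which passed in 1 pair each.

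The scale matters for the split with the parotid array. Centring each array on its median moved the median difference of genes detected on all 3 arrays to 0.36 for submandibular-labelled over parotid, against 0.05 in the main processing, and gave 8 members at least 2-fold higher and 5 lower in place of 5 and 5. Normexp background correction gave 1 higher and 3 lower for both comparisons with parotid. The members it leaves past 2-fold are Slc1a5, higher than parotid, and Slc1a2, Slc1a3 and Slc43a1, lower than parotid, on both other arrays.

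**Figure D1:**
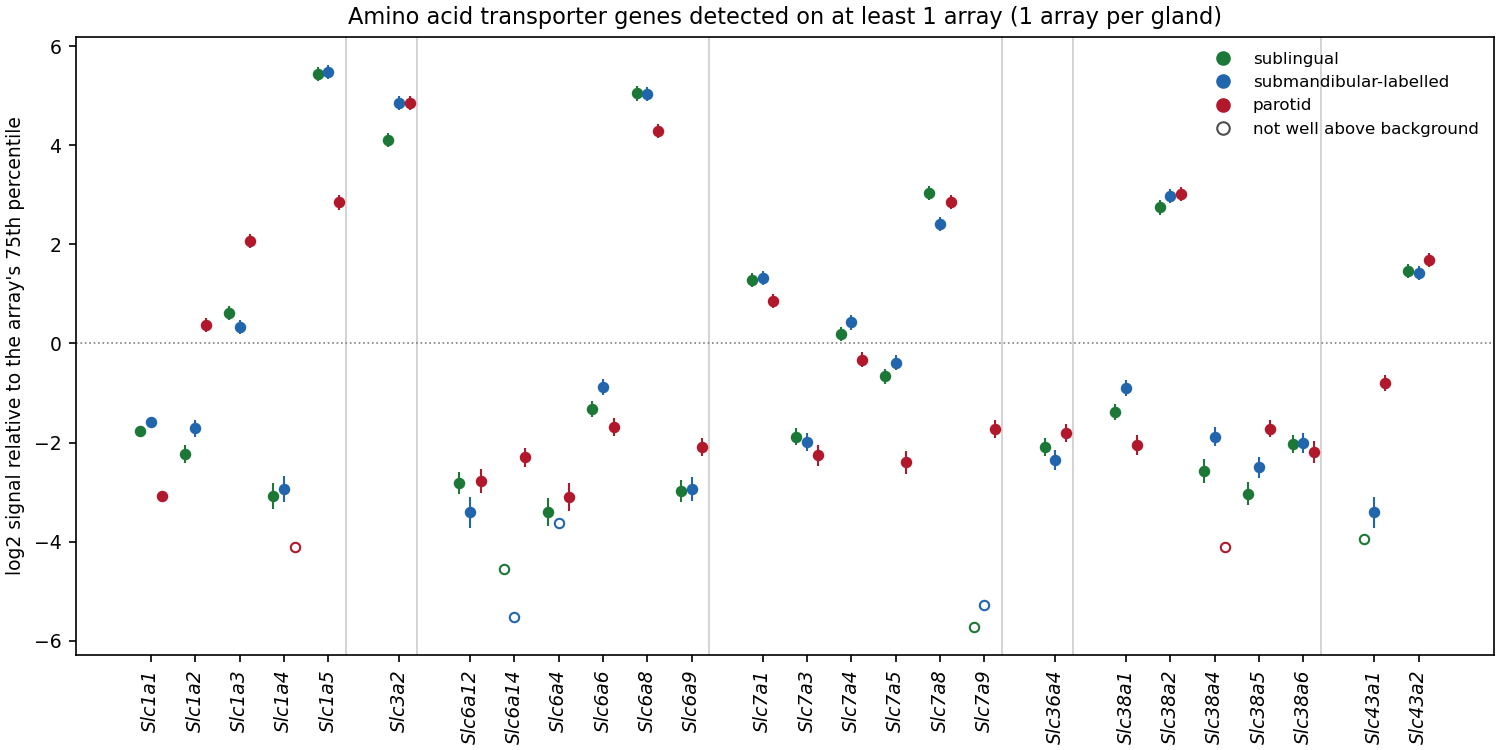
Levels of the 26 transporter genes detected on at least 1 array, as log2 scaled signal (vertical axis), with the genes along the horizontal axis by family and the sublingual, submandibular-labelled and parotid arrays from left to right within each gene. Filled points are detected, open points are not well above background, and bars are the scanner software's spot error; green and blue points mostly lie together, while Slc1a5, Slc1a2 and Slc43a1 stand apart from their red parotid point.

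**Figure D2:**
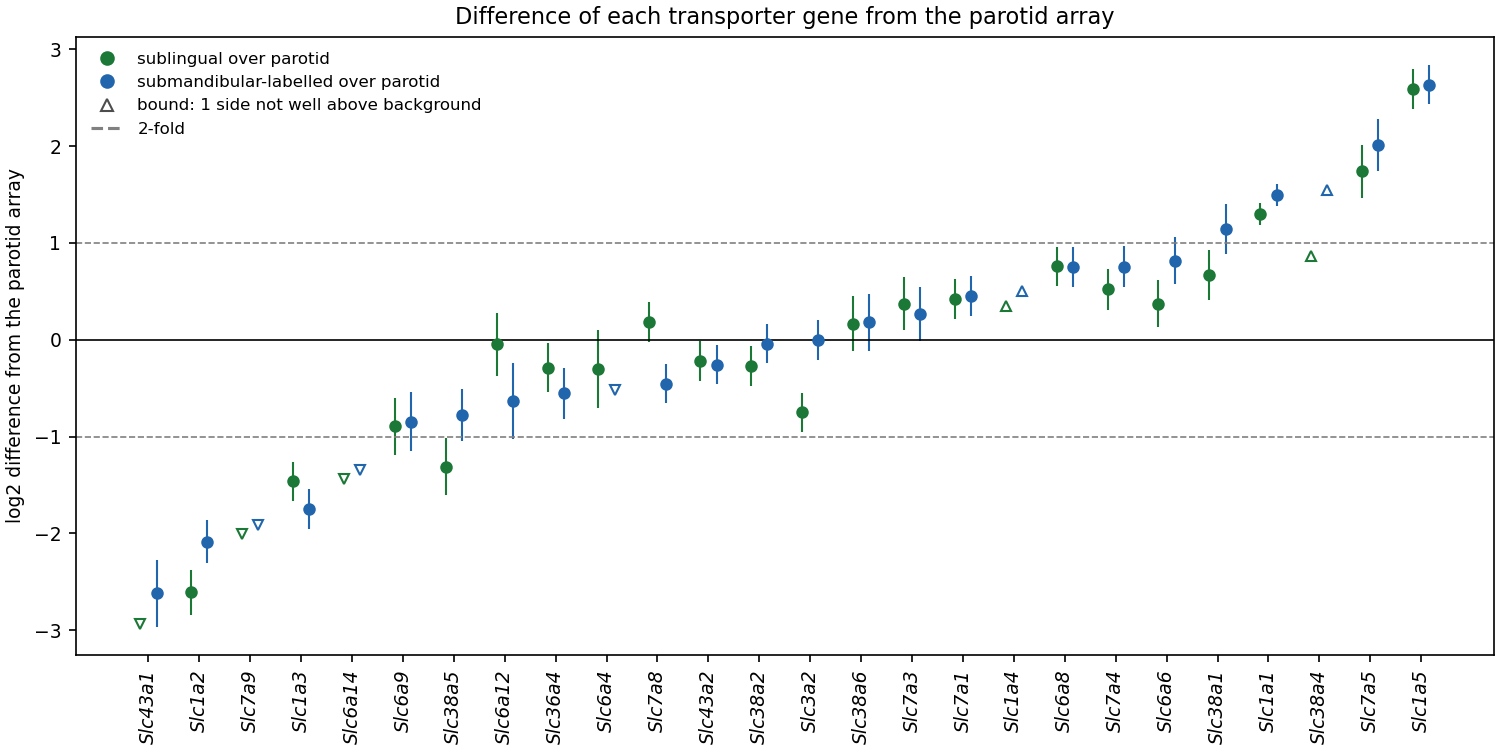
Log2 difference from the parotid array of each detected transporter gene, for sublingual (green) and submandibular-labelled (blue), ordered by the submandibular-labelled difference. Bars are the scanner error of the difference and triangles are bounds where 1 side was not well above background; beyond the dashed 2-fold lines lie Slc43a1, Slc1a2, Slc7a9, Slc1a3 and Slc6a14 below and Slc1a1, Slc7a5 and Slc1a5 above, for both colours.

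The Slc1a family holds the sodium-coupled carriers of glutamate and aspartate and a pair of neutral amino acid exchangers. It had 7 members, of which 5 were detected, 4 of them on all arrays. The exchanger Slc1a5 (ASCT2), a main route of glutamine uptake in many cells, was among the 3 genes higher than parotid on both other arrays. Its scaled signal was 43.4 in sublingual and 44.7 in submandibular-labelled, against 7.20 in parotid. This is 6.03-fold higher in sublingual than in parotid (log2 2.59, error 0.20) and 6.21-fold higher in submandibular-labelled (log2 2.64, error 0.20), with sublingual and submandibular-labelled 0.04 apart. The value rests on 1 probe, at chr1:77124932-77124991 in rn4; another probe for Slc1a5, made from a different transcript record, was detected on no array, and with the median of both probes the log2 differences from parotid were 1.14 and 2.14. The related exchanger Slc1a4 (ASCT1), which carries alanine, serine and cysteine, was low, at 0.118 in sublingual, 0.131 in submandibular-labelled and 0.0575, not detected, in parotid, or at least 1.28-fold above parotid in sublingual and at least 1.41-fold in submandibular-labelled.

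The glutamate carriers split in opposite directions. Slc1a1 (EAAC1), which takes up glutamate, aspartate and cysteine in neurons and epithelia, had scaled signals of 0.293 in sublingual and 0.334 in submandibular-labelled, against 0.119 in parotid. It was 2.47-fold higher in sublingual than in parotid (log2 1.30, error 0.11) and 2.82-fold higher in submandibular-labelled (log2 1.49, error 0.11). Its probe was printed 10 times on each array. The 10 spots ranged over 0.260 to 0.330 in sublingual (SD 0.12 on the log2 scale), 0.294 to 0.368 in submandibular-labelled (SD 0.11) and 0.0677 to 0.165 in parotid (SD 0.36). No parotid spot reached the lowest spot on the other arrays, and 7 of 10 parotid spots were well above background, against 10 of 10 on each other array. These are repeats of 1 RNA, and the errors of Slc1a1 are small because they were divided over 10 spots, where most probes had 1. Under normexp correction the differences from parotid fell to 0.30 and 0.40, short of 2-fold.

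**Figure D3:**
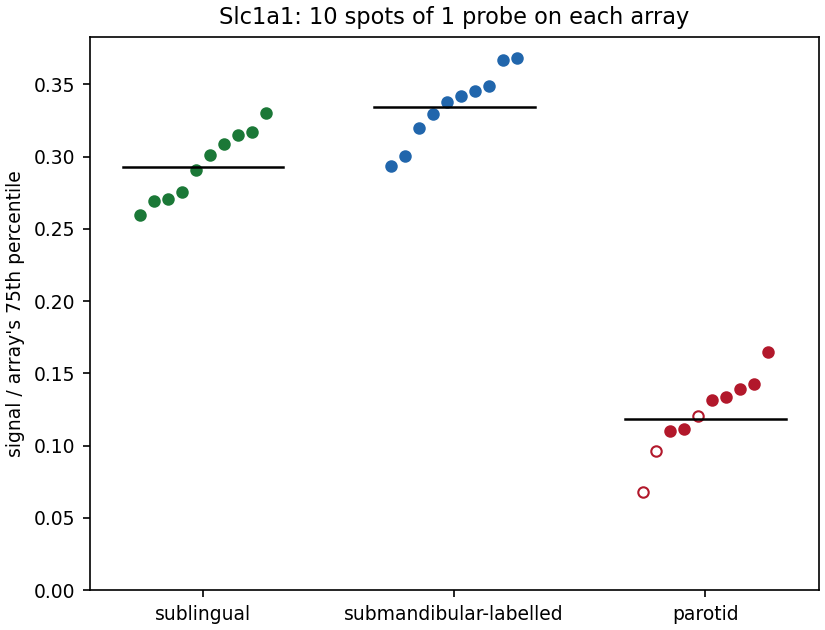
Scaled signal of Slc1a1 (vertical axis, from 0) at each of the 10 spots of its probe on the sublingual, submandibular-labelled and parotid arrays, sorted within an array, with the mean of log2 values as a line. Open points were not well above background; the highest parotid spot (0.165) lies below the lowest sublingual spot (0.260).

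Slc1a2 (GLT-1) and Slc1a3 (GLAST), best known as the glutamate carriers of astroglia in the brain, were lower on both other arrays than in parotid. Slc1a2 had scaled signals of 0.213 in sublingual and 0.305 in submandibular-labelled, against 1.30 in parotid. This is 6.09-fold lower in sublingual (log2 -2.61, error 0.23) and 4.25-fold lower in submandibular-labelled (log2 -2.09, error 0.22), from a probe at chr3:87988361-87988420 in rn4. Under normexp correction the differences were -1.66 and -1.31, and with the median of the gene's probes -1.58 and -1.35. Slc1a2 was also read by a probe from another transcript record (chr3:87993033-87993092), none of whose repeat spots was well above background on any array.

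Slc1a3 had 1.53 in sublingual and 1.26 in submandibular-labelled, against 4.22 in parotid, or 2.76-fold lower (log2 -1.46, error 0.21) and 3.35-fold lower (log2 -1.74, error 0.21). Both Slc1a3 probes gave the same direction, the other one with log2 -1.26 and -1.11. Of 6 Schwann and glial markers compared, 5 were lower than parotid on both other arrays, as immune and fibroblast markers were. By at least 2-fold, 3 were lower in sublingual (12.9% of all genes) and 4 in submandibular-labelled (13.9% of all genes). Pmp22 was higher than parotid, by 1.14-fold and 1.26-fold. The whole list of 9 summed to 9.29 in sublingual, 12.2 in submandibular-labelled and 27.6 in parotid. Sox10, a transcription factor of Schwann cells that salivary acinar cells also express, made up most of that sum, at 5.33, 8.11 and 22.9. Gfap, S100b and Fabp7 were detected on no array. The part of any of these cell types in the Slc1a2 and Slc1a3 differences was not tested. The neuronal and retinal glutamate carriers Slc1a6 and Slc1a7 were detected on no array.

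The heavy chains of the Slc3a family carry Slc7 light chains to the surface. Slc3a2 (4F2hc, CD98) was bright on each array, with scaled signals of 17.3 in sublingual, 29.0 in submandibular-labelled and 29.1 in parotid. It was lower in sublingual than in parotid by 1.68-fold (log2 -0.75, error 0.20) and equal within 0.01 log2 between submandibular-labelled and parotid. Quantile normalization took the difference of sublingual over parotid to -1.07, past 2-fold. The other heavy chain, Slc3a1 (rBAT), was not detected.

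Of the 12 Slc7a genes, 6 were detected. Slc7a5 (LAT1), the Slc3a2-linked exchanger that brings in leucine and other large neutral amino acids, had scaled signals of 0.631 in sublingual and 0.763 in submandibular-labelled, against 0.189 in parotid. This is 3.34-fold higher in sublingual (log2 1.74, error 0.27) and 4.03-fold higher in submandibular-labelled (log2 2.01, error 0.27), from a probe at chr19:52121389-52121448 in rn4. Under normexp correction these differences were 0.64 and 0.82. Slc7a8 (LAT2), the exchanger of the same substrates found in many epithelia, had 8.24 in sublingual, 5.31 in submandibular-labelled and 7.26 in parotid, all within 2-fold of each other.

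The light chain of Slc3a1, Slc7a9 (b0,+AT), exchanges cystine and cationic amino acids in kidney and gut. Slc7a9 was detected only on the parotid array, at 0.301, against 0.0190 in sublingual and 0.0256 in submandibular-labelled, so that it was lower than parotid by at least 4.01-fold in sublingual and by at least 3.76-fold in submandibular-labelled. Its probe lies at chr1:87998978-87999037 in rn4. The normexp values were -0.84 and -0.73, so the gap was below 2-fold under that setting.

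The cationic amino acid carriers, which supply lysine, arginine and ornithine, differed less. Slc7a1 (CAT1) had 2.43 in sublingual, 2.49 in submandibular-labelled and 1.82 in parotid. A further Slc7a1 probe was within 0.02 log2 of parotid on both other arrays. Slc7a3 (CAT3) had 0.271, 0.251 and 0.209 on the same arrays in that order. Slc7a4, a relative of the cationic carriers, had 1.14 in sublingual, 1.34 in submandibular-labelled and 0.796 in parotid, and reached 2-fold only for submandibular-labelled over parotid with median centring (1.06, against 0.75 in the main processing). Detected on no array were Slc7a2, Slc7a6, Slc7a7, Slc7a10, Slc7a11 (the cystine-glutamate exchanger xCT) and Slc7a13.

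The Slc6a family holds sodium- and chloride-coupled carriers of neurotransmitters, amino acids, creatine and taurine, and 6 of its 16 members were detected. Slc6a14 (ATB0,+), which takes up neutral and cationic amino acids across the apical side of epithelia, was detected only on the parotid array, at 0.203. It measured 0.0426 in sublingual and 0.0218 in submandibular-labelled, which is lower than parotid by at least 2.71-fold in sublingual and by at least 2.55-fold in submandibular-labelled. Normexp correction put these at -0.78 and -0.82. No other detected Slc6a member was counted as 2-fold apart in the main processing. With median centring, Slc6a6 (1.13) and Slc6a8 (1.06) passed 2-fold for submandibular-labelled over parotid.

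Slc6a8, the creatine carrier, was the brightest Slc6a gene, with 33.2 in sublingual and 33.0 in submandibular-labelled, against 19.6 in parotid, or 1.69-fold and 1.68-fold higher. A further probe for Slc6a8 gave log2 -0.11 and 0.18 for the same comparisons. Slc6a6, the taurine carrier, had 0.399 and 0.544, against 0.309 in parotid. Slc6a9 (GlyT1), a glycine carrier, had 0.127 and 0.131, against 0.235 in parotid, or 1.86-fold and 1.80-fold lower. Slc6a12, a carrier of betaine and GABA, had 0.142 in sublingual, 0.0943 in submandibular-labelled and 0.146 in parotid. Slc6a4, the serotonin carrier, was at the edge of detection, with 0.0951, 0.0816 (not detected) and 0.117. Members detected on no array included the monoamine carriers Slc6a2 and Slc6a3, the glycine carrier Slc6a5 and the proline carrier Slc6a7, along with Slc6a11, Slc6a13, Slc6a15, Slc6a17 and Slc6a18.

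The Slc38a family holds sodium-coupled carriers of glutamine, alanine and other neutral amino acids, in the transport systems called A and N. Of its 6 members 5 were detected. Slc38a1 (SNAT1) had 0.385 in sublingual and 0.535 in submandibular-labelled, against 0.243 in parotid, so it was 1.59-fold higher in sublingual (log2 0.67, error 0.26) and 2.21-fold higher in submandibular-labelled (log2 1.14, error 0.26). Slc38a4 (SNAT4) had 0.168 and 0.271, against 0.0575 in parotid, where it was not detected, or higher by at least 1.82-fold in sublingual and by at least 2.93-fold in submandibular-labelled. Slc38a5 (SNAT5), of system N, ran the other way, with 0.122 in sublingual and 0.177 in submandibular-labelled, against 0.303 in parotid, or 2.48-fold lower in sublingual (log2 -1.31, error 0.30) and 1.72-fold lower in submandibular-labelled (log2 -0.78, error 0.27). All of these are dim probes, and under normexp correction the 3 differences past 2-fold were 0.44 for Slc38a1, 0.53 for Slc38a4 and -0.50 for Slc38a5. The bound of Slc38a4 for sublingual over parotid, short of 2-fold here, passed it with median centring and, at 1.15, with quantile normalization.

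Slc38a2 (SNAT2), which cells raise when amino acids run short, was the brightest Slc38a gene and near equal, at 6.72 in sublingual, 7.90 in submandibular-labelled and 8.12 in parotid. Slc38a6 measured 0.246, 0.248 and 0.219 on those arrays with the probe shown. A further probe gave 0.137, 0.0702 (not detected) and 0.138, and another was detected on no array. With the median of its probes, the log2 bounds were 0.78 for sublingual over submandibular-labelled and -0.79 for submandibular-labelled over parotid. Its near-equal levels thus rest on the probe shown. The system N carrier Slc38a3 was not detected.

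In the Slc43a family, LAT3 and LAT4 carry large neutral amino acids without sodium. Slc43a1 (LAT3) measured 0.0643, not detected, in sublingual and 0.0939 in submandibular-labelled, against 0.575 in parotid, so it was at least 7.67-fold lower in sublingual and 6.13-fold lower in submandibular-labelled (log2 -2.62, error 0.35). Its probe lies at chr3:68083249-68083308 in rn4. Under normexp correction the differences were -1.43 and -1.28. Slc43a2 (LAT4), the close relative, had 2.76 in sublingual, 2.69 in submandibular-labelled and 3.22 in parotid, and a further probe gave log2 -0.85 and -0.82 against parotid. Slc43a3 was not detected. Among the proton-coupled Slc36a carriers, only Slc36a4 was detected, at 0.234, 0.195 and 0.286, and Slc36a1, Slc36a2 and Slc36a3 were not.

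Some of these genes are known targets of factors that respond to amino acid supply or growth. In RefSeq promoter windows of assembly GRCr8, 250 bases before to 50 after a start, 37 of the 50 members had 41 windows. The C/EBP-ATF response element core TGATGNAA, which Atf4 binds, was searched on both strands and lay in 3 of the 41 member windows (7.32%), those of Slc1a4, Slc38a1 and Slc7a1, against 3.98% of all 33469 windows. The E-box CACGTG, a palindrome bound by Myc and related factors, lay in 6 of 41 (14.6%), against 6.42% of all windows, and those belonged to Slc1a4, Slc1a6, Slc1a7, Slc36a1, Slc43a1 and Slc7a5. A match describes letters only. The 3 windows that hold a match and belong to members at least 2-fold apart are printed 5′ to 3′ on the gene's strand, with the match in capitals.
Slc43a1: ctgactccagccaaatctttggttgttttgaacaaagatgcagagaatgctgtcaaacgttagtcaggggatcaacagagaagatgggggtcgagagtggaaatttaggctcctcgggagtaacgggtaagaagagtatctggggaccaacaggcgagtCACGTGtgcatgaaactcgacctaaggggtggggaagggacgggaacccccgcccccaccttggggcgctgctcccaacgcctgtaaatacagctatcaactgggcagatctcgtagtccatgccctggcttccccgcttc
Slc7a5: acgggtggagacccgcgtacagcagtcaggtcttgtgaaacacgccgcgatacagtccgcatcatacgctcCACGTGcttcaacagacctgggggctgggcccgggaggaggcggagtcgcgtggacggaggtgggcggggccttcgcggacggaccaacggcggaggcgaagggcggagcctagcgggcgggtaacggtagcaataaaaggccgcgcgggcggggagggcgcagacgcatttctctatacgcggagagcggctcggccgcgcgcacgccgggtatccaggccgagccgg
Slc38a1: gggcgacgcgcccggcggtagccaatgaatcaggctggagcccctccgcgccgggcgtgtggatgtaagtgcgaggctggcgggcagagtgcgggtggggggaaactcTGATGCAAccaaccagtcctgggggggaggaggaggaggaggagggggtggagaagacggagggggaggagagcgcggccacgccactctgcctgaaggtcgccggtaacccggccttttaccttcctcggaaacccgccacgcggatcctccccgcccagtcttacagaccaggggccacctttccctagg
The Slc43a1 window is chr3:90327072-90327371 on the plus strand, with CACGTG from base -91 relative to the start. The Slc7a5 window is chr19:66872363-66872662 on the minus strand, with CACGTG from base -179. The Slc38a1 window is chr7:129681352-129681651 on the minus strand, with TGATGCAA from base -142. Slc7a5 was higher and Slc43a1 was lower than parotid on both other arrays. Whether either motif bears on these levels was not tested. Slc1a5 was among the members without a window. The windows of Slc1a2 and Slc7a9 held neither motif.

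Genes of amino acid metabolism and sensing were read in the same way, from lists chosen with earlier results of these data in view. No member of these lists was at least 2-fold apart between sublingual and submandibular-labelled. The amino acid response list held Atf4, its targets, which include amino acid synthesis enzymes, and Eif2ak4 and Eif2ak3, kinases upstream of Atf4. Of 23 genes compared, 8 were at least 2-fold lower in sublingual than in parotid and 2 were higher, and 8 were lower and 1 higher in submandibular-labelled. For these and the next lists, the shares of all genes are 12.9% lower and 11.2% higher in sublingual, and 13.9% lower and 9.72% higher in submandibular-labelled. The largest differences from parotid were those of Vldlr, a lipoprotein receptor (at least 4.84-fold lower in sublingual and 3.25-fold lower in submandibular-labelled), and Atf3, a stress-induced transcription factor (4.23-fold and 4.69-fold lower). Atf4 itself, the transcription factor of the response, was near equal, at 165, 148 and 145 in sublingual, submandibular-labelled and parotid. Asparagine synthetase (Asns) had 18.6 and 28.0, against 60.2 in parotid, and Phgdh, the first enzyme of serine synthesis, had 31.5 and 42.5, against 91.4 in parotid. Pycr1, the last enzyme of proline synthesis, had 0.349 and 0.513, against 1.04 in parotid. Eif2ak4 (GCN2, the sensor of uncharged tRNA) was higher on both other arrays, at 7.21 and 6.58, against 2.79 in parotid. It was the 1 gene counted as higher in submandibular-labelled, and it is not an Atf4 target in this list. Nupr1, a stress-response factor, had 295 and 262, against 136 in parotid, which is 2.17-fold and, short of the threshold, 1.93-fold higher.

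Among 16 to 17 compared genes of glutamate, glutamine, arginine and proline metabolism, 3 were at least 2-fold higher and 4 lower in sublingual than in parotid, and 2 higher and 2 lower in submandibular-labelled (all genes: 11.2% higher and 12.9% lower, and 9.72% higher and 13.9% lower). The largest differences lay with glutaminase 2 (Gls2), which frees glutamate from glutamine, and arginase 2 (Arg2), the mitochondrial arginase. Gls2 had 69.7 in sublingual and 44.7 in submandibular-labelled, against 6.40 in parotid, or 10.9-fold and 6.99-fold higher. Arg2 had 5.12 and 4.83, against 0.277 in parotid, or 18.5-fold and 17.4-fold higher. The alanine transaminase Gpt2 was lower, at 0.298 and 0.398, against 1.24 in parotid, while glutamine synthetase (Glul) had 9.22 in sublingual, 10.5 in submandibular-labelled and 9.19 in parotid.

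**Figure D4:**
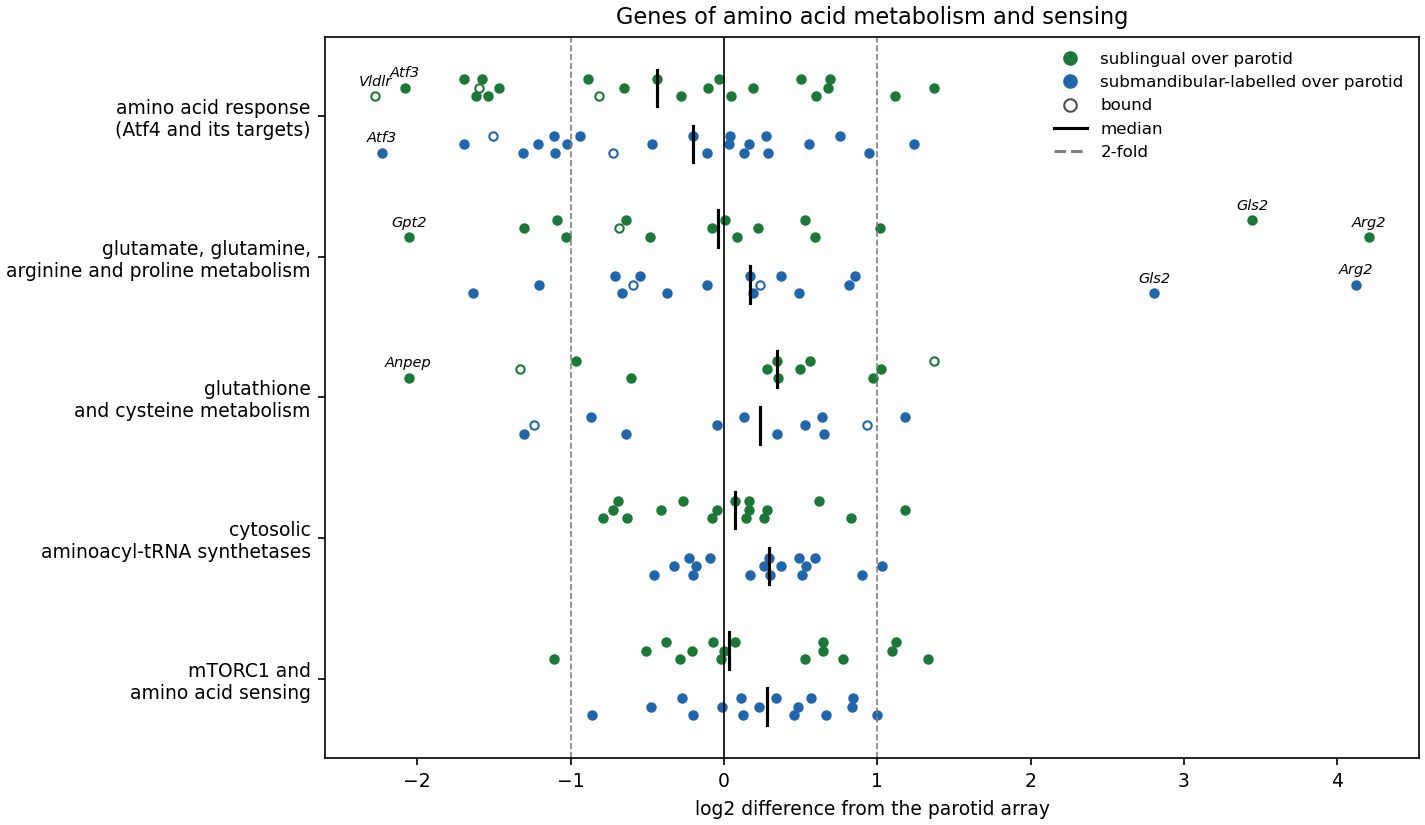
Log2 difference from the parotid array (horizontal axis) of each compared gene in 5 lists of amino acid metabolism and sensing, for sublingual (green, upper row) and submandibular-labelled (blue, lower row) within each list. Open points are bounds, black bars are list medians and dashed lines mark 2-fold; Gls2 and Arg2 stand far to the right and most of the 2-fold differences of the amino acid response lie to the left.

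Of 9 compared genes of branched-chain, aromatic and glycine metabolism, 3 were at least 2-fold higher and 0 lower than parotid on both other arrays (all genes: 11.2% and 9.72% higher, 12.9% and 13.9% lower). The largest was Ddc, aromatic amino acid decarboxylase, at 91.0 in sublingual and 59.7 in submandibular-labelled, against 0.213 in parotid. Bckdhb and Dbt, subunits of the branched-chain ketoacid dehydrogenase, were the others, Bckdhb at 28.6 and 26.8, against 11.3 in parotid. Of 12 genes of glutathione and cysteine metabolism, 2 were higher and 2 lower in sublingual than in parotid by at least 2-fold, and 1 higher and 2 lower in submandibular-labelled, close to the shares of all genes. Anpep, an aminopeptidase, had 3.10 and 5.22, against 12.9 in parotid.

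The 17 cytosolic aminoacyl-tRNA synthetases, which load tRNAs, showed 1 gene at least 2-fold higher and 0 lower in each comparison with parotid, Nars1 in sublingual (9.14, against 4.04 in parotid) and Farsa in submandibular-labelled (2.04-fold). In sublingual over submandibular-labelled, 16 of the 17 were lower, with a median of -0.28 (0.03 over all genes compared) and none at 2-fold. The share of all genes lower in that pair was not computed, so this count is not read as particular to the synthetases. Of 16 genes of mTORC1 and amino acid sensing, 3 were higher and 1 lower in sublingual than in parotid by at least 2-fold (11.2% and 12.9% of all genes) and 0 in submandibular-labelled. The higher ones were the lysosomal anchors Lamtor1, Lamtor4 and Lamtor5, which lay just short of 2-fold in submandibular-labelled, at 1.79-fold, 1.78-fold and 1.99-fold. Of 12 further amino acid and peptide carriers, in mitochondria, lysosomes and vesicles or of the Slc15 family, 0 were 2-fold apart in any pair, with 3 higher and 9 lower than parotid on both other arrays.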

How the data were processed

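RNA of 3 glands was measured on 3 arrays, grouped by the gland in the labels. Per the file headers, Agilent Feature Extraction 10.1.1.1 with protocol GE1-v5_10_Apr08 wrote the deposited intensity of each spot (processed signal, mean signal, local background) for array design 014879; its probe coordinates are rn4. The deposited other columns flag outlier spots, saturated spots and spots well above background. A value table of the series, a linear ratio made by the authors, equalled the processed signal divided by 250, 236 and 190.1 in sublingual, submandibular-labelled and parotid (43379 spots each, range up to 0.0142 on the log2 scale for bright spots); its medians were 0.128, 0.122 and 0.152, so its scale and direction are known and no gene was centred.

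The processed signal was divided by each array's 75th percentile over probes (244, 228 and 186). Control spots and outlier-flagged spots (73, 79 and 68) were left out, spots of a probe were averaged on the log2 scale, and a gene was shown by its probe of highest mean level. The lowest detected level, used for bounds, was a scaled signal of 0.0750, 0.0799 and 0.0925. Whether a probe lies in an exon or an untranslated region was not examined. All 50 members matched a RefSeq symbol of GRCr8, which served for names and promoters only.

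The members and lists were chosen with earlier results of these data known, and some of their genes are not reported here by name. Members at least 2-fold apart, the Slc3a and Slc7a genes and the steadiest gene of each family were to be named, and the other detected members are given as well, chosen after their values were seen. Of each gene list, up to 3 members by size of difference were to be named; Atf4, Asns, Phgdh, Pycr1, Eif2ak4, Nupr1, Glul, Bckdhb, Dbt, Nars1, Farsa and Sox10 were singled out after their values were seen where they fall outside that. Tried as alternatives were a 4-fold threshold, probes in place of genes, a gene's median probe, genes detected on all arrays, the deposited ratios, quantile normalization, centring on the median, and normexp with offset 50 (R 4.3.3, limma 3.58.1). The counting steps were tested on simulated data. Scripts ran in Python 3.11.15 (numpy 2.4.6, pandas 2.3.3, matplotlib 3.10.9).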

Additional observations from a re-analysis of the deposited data

How the results depend on the processing

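No paired analysis was possible because each gland had 1 array; for the same reason no array could be left out. Of 76 differences of the detected members (75 under normexp correction and with the median of probes), 19 were past 2-fold, and none past 2-fold changed sign under normexp correction, quantile normalization, median centring, the deposited values or the median of a gene's probes. Normexp correction took 11 of the 19 below 2-fold. It adds an offset of 50 to the signal of every spot, which by arithmetic narrows the ratios of dim probes. How much of the loss came from the offset was not tested. Quantile normalization put 2 more past 2-fold and median centring 4 more, and the deposited values moved no difference by more than 0.0225. Members at least 2-fold higher in sublingual than in parotid numbered 3 in the main processing, 1 under normexp correction and 1 at 4-fold. Those lower numbered 6, against 3 under normexp correction, 3 among genes detected on all arrays and 3 at 4-fold. For submandibular-labelled over parotid, 5 were higher, against 1 under normexp correction, 8 with median centring and 2 at 4-fold, and 5 were lower, against 3 under normexp correction, 2 among genes detected on all arrays and 2 at 4-fold. In sublingual over submandibular-labelled the count of lower members was 0, and 1 (Slc1a5) when a gene's probes were represented by their median, since its other probe was not detected. The limits are 1 array per gland, dim probes for many members, and single probes for 39 of the 50 genes.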

Other observations

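A further 12 RefSeq genes with the same family prefixes stood on the array under other names and were not among the 50 members; their values are given here. Slc38a10, listed under a provisional identifier, had a scaled signal of 17.1 in sublingual and 21.1 in submandibular-labelled, against 6.77 in parotid, or 2.52-fold and 3.11-fold higher. Slc7a15 was detected only on the parotid array, at 0.914, against 0.0455 in sublingual and 0.0402 in submandibular-labelled, or lower than parotid by at least 12.2-fold in sublingual and by at least 11.5-fold in submandibular-labelled. Slc6a16 had 0.134 and 0.135, against 0.543 in parotid, or 4.04-fold and 4.03-fold lower. Slc38a7, Slc6a20a, Slc7a3l1, Slc6a21 and Slc7a6os, which despite its name is not a transporter, reached no 2-fold count in any pair, although Slc6a21 and Slc7a6os have only bounds in pairs where 1 side was not detected. Slc38a8, Slc38a9, Slc38a11 and Slc7a12 were detected on no array.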
